A study of Mus musculus with 12 samples.

Results

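Voltage-gated calcium channels open when the membrane depolarizes and let calcium into the cell. The pore and the voltage sensor lie in 1 large protein, the alpha1 subunit, and the gene that encodes it sets the type of current. The genes described here are the 8 neuronal alpha1 subunit genes, Cacna1a, Cacna1b, Cacna1c, Cacna1d, Cacna1e, Cacna1g, Cacna1h and Cacna1i, chosen by name out of 18208 genes with RNA-seq values. All 8 had a row in the RNA-seq table. They also held 716 of the 147438 distinct 100-nt positions at which RNA bound by hnRNP H had been counted, and 24 of the 9903 positions in the authors' peak list for methamphetamine and 24 of the 9537 in their list for saline.

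hnRNP H is an RNA-binding protein that prefers runs of G and acts in splicing and 3′ end processing. The study used CLIP-seq, in which the protein is cross-linked to the RNA it touches in tissue, here mouse striatum, is pulled down with an antibody, and its RNA is sequenced. Total RNA of the same pools, set aside before cross-linking, gave RNA-seq libraries. All mice were C57BL/6J wild-type offspring of heterozygous Hnrnph1 mutant males and C57BL/6J females, between 50 and 100 days old. Every mouse had a saline injection on each of 2 days. On day 3 one group received saline again and the other received methamphetamine, a psychostimulant, at 2 mg/kg, and both striata were taken 30 min later. Each treatment had 3 pools of 4 mice (2 females and 2 males), so each assay had 6 libraries, and an individual mouse cannot be followed. The comparison asks whether transcript level and hnRNP H binding differed 30 min after methamphetamine.

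The members fall into families by the current they carry. Cacna1a encodes the P/Q-type pore and Cacna1b the N-type pore, both known for triggering transmitter release at nerve terminals, and Cacna1e encodes the R-type pore. Cacna1c and Cacna1d encode the L-type pores of neurons, which couple calcium entry to gene transcription and to dopamine receptor signalling in striatal projection neurons. Cacna1g, Cacna1h and Cacna1i encode the low-voltage T-type pores, which open near the resting potential. Alpha1 transcripts are spliced in many forms, and the genes are long and mostly intron.

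RNA-seq libraries held 3935160 to 5091839 reads, recovered as whole numbers from the deposited log2 CPM (reads scaled to library size), and CLIP libraries held 423057 to 1635338 reads at counted positions. In both assays the first principal component separated saline replicates 1 and 3 and methamphetamine replicate 2 (called set A below) from saline replicate 2 and methamphetamine replicates 1 and 3 (set B). It took 65.6% of the RNA-seq variance and 46.6% of the CLIP variance, cut across treatment and matched no batch named in the labels. The split was less clear in CLIP, where methamphetamine replicate 3 scored only -0.11 on this component. Saline replicate 2 and methamphetamine replicate 1 scored -0.60 and -0.44 there, and the set A pools 0.35 to 0.42. CLIP libraries of set A held 979878 to 1635338 reads at counted positions, against 423057 to 909091 in set B. The RNA-seq library size used for scaling was 0.86 to 0.90 of the read total in set A, against 1.01 to 1.02 in set B. The summed RNA-seq level of 12 markers of striatal projection neurons was 9216 to 10700 CPM in set A against 6851 to 7940 in set B, with all 12 detected, and that of 8 astrocyte markers was 2496 to 2797 against 3668 to 4077. Between treatments the fitted change of all 12 projection neuron markers was below 0 (median -0.23 on the log2 scale). That of 8 of 8 astrocyte and 8 of 8 oligodendrocyte markers was above 0 (medians 0.18 and 0.48), as was that of 50.4% of all genes. None passed the adjusted threshold in limma. Set A held more saline than methamphetamine pools, so treatment and library set cannot be fully told apart in these changes. A list of 8 choroid plexus markers summed to 4971 CPM in methamphetamine replicate 2 and to at most 225.1 in the other libraries. Another list, of 8 thalamic neuron markers, summed to 49.75 to 76.35 CPM after saline and 56.19 to 164.6 after methamphetamine, with 4 of 8 changes above 0. Prkcd of that list read 6.10 log2 CPM in methamphetamine replicate 1 and at most 3.81 elsewhere. Of 12 cortical excitatory markers, 9 changes were above 0 (median 0.34). The part of these differences in the results below was not tested.

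The sequences under the CLIP reads are shown first, because the motif known for hnRNP H can be read from them. Of the 716 positions, 40 lay within 1 exon of an annotated transcript, where the transcript sequence (GENCODE M21, GRCm38) gives the bases of the position. The 3 that stand in the authors' peak lists are Cacna1b in its last coding exon (chr2:24606588-24606687, minus strand, both lists), Cacna1e in its 3′ UTR (chr1:154396032-154396131, minus strand, methamphetamine list) and Cacna1i in its 3′ UTR (chr15:80396339-80396438, plus strand, methamphetamine list). For Cacna1a, Cacna1d, Cacna1g and Cacna1h the single-exon position with the most reads is shown, and Cacna1c had none. Over the 6 libraries these held only 9 (Cacna1a), 15 (Cacna1d), 19 (Cacna1g) and 46 (Cacna1h) reads. The listed positions held 71 (Cacna1b), 174 (Cacna1e) and 101 (Cacna1i). From each 100-nt position the 30-nt stretch with the most bases in runs of 3 or more G is printed 5′ to 3′, with those runs in capitals:
Cacna1b, coding exon, chr2:24606610-24606639: tttGGGactcagcactggcgtccGGGcgcg
Cacna1e, 3′ UTR, chr1:154396074-154396103: gcagctttccttaGGGGaagcctgcaacag
Cacna1i, 3′ UTR, chr15:80396362-80396391: GGGttGGGGGacagagcaggaggctcaGGG
Cacna1a, exon of a non-coding transcript, chr8:84553759-84553788: cctggctGGGaagacaGGGtGGGtctgcag
Cacna1d, 5′ UTR of a nonsense-mediated decay transcript, chr14:30353395-30353424: cGGGcGGGcggacGGGcggcatGGGGGGcg
Cacna1g, coding exon, chr11:94459761-94459790: cGGGagcagcgtgtacgattcctgtccaat
Cacna1h, coding exon, chr17:25376907-25376936: ctccccagccaGGGtcagcgaccccctttg
Across each whole 100-nt position, Cacna1d held 7 such runs, the longest of 6 bases, Cacna1i held 4, the longest of 5, and Cacna1e held 1, of 4. GGG on the transcript strand was present in 32 of the members' 40 single-exon positions (80.0%) and in 70.9% of 24074 single-exon positions of all genes. GGGG, each of which also contains GGG, was present in 40.0% and 36.5%. Among single-exon positions with at least 10 reads the shares were closer, at 81.0% of the members' 21 against 77.1% of all for GGG, and the order turned for GGGG, at 42.9% against 44.4%. The positions were printed partly for their reads and the stretches for their G runs, so the capitals describe these sequences and say nothing of what hnRNP H contacted. The intron positions, which held most of the reads, have no sequence here.

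All 8 genes were transcribed in every pool. Per kb of the union of a gene's annotated exons, the median level over the 6 RNA-seq libraries was highest for Cacna1i, at 29.5 CPM per kb (22.7 to 36.5). Cacna1a followed at 23.9 (20.2 to 28.1), Cacna1h at 18.3 (14.7 to 24.7), Cacna1e at 14.4 (11.3 to 15.9) and Cacna1b at 14.3 (11.5 to 16.7). Cacna1c stood at 8.63 (8.03 to 9.70), Cacna1g at 6.07 (4.81 to 6.99) and Cacna1d was lowest at 3.32 (2.82 to 3.99). In this order Cacna1c, Cacna1g and Cacna1d did not overlap their neighbours, whereas each pair of neighbours from Cacna1i to Cacna1b did. The order depends on which length is used. Per kb of 1 reference transcript, Cacna1a was highest at 34.4 CPM per kb (29.1 to 40.4) and Cacna1c moved up to 27.4 (25.5 to 30.8), while Cacna1g and Cacna1d remained the lowest 2 at 7.34 (5.81 to 8.46) and 6.39 (5.42 to 7.68), with ranges that overlapped.

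Transcript levels of the 8 genes did not pass the test between treatments. With limma on all 18208 genes, 0 of 8 members had a Benjamini-Hochberg adjusted p under 0.05 (0.9998 for each), as did 0 of all genes, or 0.0%. At an unadjusted p under 0.05 there were 0 members and 276 genes (1.52%). The saline and methamphetamine values overlapped for all 8 members, where 6.01% of all genes had groups that did not overlap. The median change of the members was -0.04 on the log2 scale, against 0.00 for all genes. It was 0.04 when scaled to the read total, where the median of all genes was 0.09, and 0.09 without methamphetamine replicate 1. In bulk tissue fewer cells of a type and less RNA per cell cannot be told apart.

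Cacna1a, the P/Q-type pore, read 8.12, 7.95 and 8.26 log2 CPM in the saline pools (replicates 1, 2, 3, here and below) and 7.85, 8.32 and 8.06 in the methamphetamine pools, in the same order of replicates. The lowest and the highest value were both methamphetamine pools. The limma change was -0.03 ± 0.18 (SE), with a 95% interval from -0.44 to 0.37. It was 0.07 with the library set as a covariate and 0.05 when scaled to the read total, so it has no stable sign. Cacna1b, the N-type pore, read 7.08, 7.13 and 7.16 after saline and 6.83, 7.25 and 7.37 after methamphetamine, a change of 0.03 ± 0.18. The saline pools lay close together and inside the range of the methamphetamine pools. Cacna1e, the R-type pore, had 8.58, 8.48 and 8.44 after saline and 8.16, 8.53 and 8.65 after methamphetamine. Its change of -0.05 ± 0.18 became 0.03 when scaled to the read total and 0.09 without methamphetamine replicate 1, its lowest pool.

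Of the L-type genes, Cacna1c read 7.67, 7.41 and 7.68 log2 CPM after saline and 7.43, 7.59 and 7.41 after methamphetamine. Saline replicate 2 lay with the lower methamphetamine pools, and the change was -0.11 ± 0.15, with an interval from -0.46 to 0.24. Cacna1d had 5.31, 5.66 and 5.15 after saline and 5.46, 5.31 and 5.63 after methamphetamine, a change of 0.09 ± 0.19 that was -0.02 with the library set as a covariate. Its highest and its lowest pool were both saline.

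Of the T-type genes, Cacna1g read 6.05, 5.83 and 5.61 log2 CPM after saline and 5.70, 6.08 and 6.15 after methamphetamine, a change of 0.15 ± 0.19. Cacna1h read 7.66, 7.28 and 7.92 after saline and 7.26, 7.85 and 7.16 after methamphetamine. Saline replicates 1 and 3 and methamphetamine replicate 2 were high, and the change of -0.19 ± 0.23 had the widest interval of the 8, from -0.72 to 0.33. Cacna1i had 8.27, 8.05 and 8.47 after saline and 8.09, 8.49 and 7.81 after methamphetamine, a change of -0.13 ± 0.21 that was 0.01 with the library set as a covariate. The intervals of all 8 genes lay between -0.72 and 0.58, so a change by 1 on the log2 scale (a doubling or halving) lay outside each of them under this fit.

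**Figure D1:**
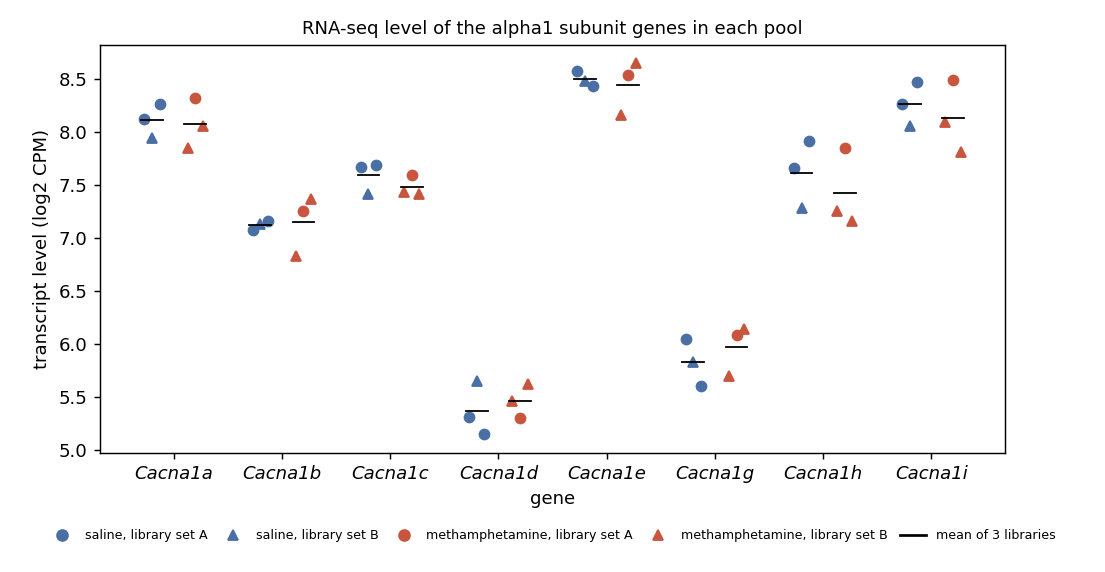
RNA-seq level of the 8 genes in log2 CPM (vertical axis), 1 point per pool, with saline in blue, methamphetamine in red, circles for set A, triangles for set B and a line at the mean of 3 pools. Colours overlap for all 8 genes, whereas circles and triangles separate for Cacna1a, Cacna1c, Cacna1d, Cacna1h and Cacna1i.

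The pools of the members differed by library set. Set A lay wholly above set B for Cacna1a (8.12 to 8.32 against 7.85 to 8.06 log2 CPM), Cacna1c (7.59 to 7.68 against 7.41 to 7.43), Cacna1h (7.66 to 7.92 against 7.16 to 7.28) and Cacna1i (8.27 to 8.49 against 7.81 to 8.09). Cacna1d went the other way, with 5.15 to 5.31 in the A pools against 5.46 to 5.66 in the B pools. These are 5 of 8 members, and 38.8% of all genes had sets that did not overlap. The sets were drawn from these libraries, so the count is a description and carries no test. Within sets, methamphetamine minus saline for Cacna1h was 0.06 on the log2 scale in set A and -0.07 in set B, both smaller than the pooled -0.19. For Cacna1i the values were 0.13 and -0.10, and for Cacna1a 0.13 and 0.01, each from 1 pool on one side.

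Other genes named for calcium channel subunits, or known as channel partners, were taken from 5 lists that hold 32 genes in all. The lists were Cacna1f and Cacna1s, the beta subunits, the alpha2delta subunits, the gamma family (grouped by gene name) and channel partners. Under limma 0 of 32 passed the adjusted threshold, and 1 of 32 had an unadjusted p under 0.05, against 1.52% of all genes. That gene was Rem2, a small GTPase that binds beta subunits and limits channel current. It read 6.26, 5.76 and 6.05 log2 CPM after saline and 5.42, 5.71 and 5.29 after methamphetamine, a change of -0.55 ± 0.19 (limma, adjusted p 0.9998). All 3 methamphetamine pools were below all 3 saline pools, as they were for 2 of the 32 genes, Rem2 and Cacna2d2, where 6.01% of all genes did not overlap in either direction. Next by unadjusted p were Cacna2d2, an auxiliary alpha2delta subunit, at 7.14, 7.22 and 7.01 against 6.88, 6.94 and 6.90 (change -0.22 ± 0.14), and Akap5, a scaffold for kinases at L-type channels (change -0.34 ± 0.25). The median change of the 32 genes was -0.01, and 16 of them were above 0. The 4 beta subunits, which carry alpha1 to the membrane, had sets A and B that did not overlap in 4 of 4, against 38.8% of all genes, and not in 1 direction: set A was higher for Cacnb1 and Cacnb3 (8.103 against 8.098 log2 CPM between the nearest pools of Cacnb3) and lower for Cacnb2 and Cacnb4. Cacna1s and Cacna1f, the pores known from skeletal muscle and retina, together summed to only 4.05 to 7.19 CPM per library.

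hnRNP H CLIP reads were found on all 8 genes. They numbered 9514 over the 6 CLIP libraries, or 0.12% to 0.24% of a library's reads at counted positions. Most positions were sparse: the median held 7 reads over all libraries, 29 held none, and 66 had reads in all 6 libraries. Per 100 kb of gene, the median CLIP signal was highest for Cacna1h, at 295.0 CPM (204.5 to 434.7), then Cacna1i at 215.3 (153.2 to 264.5) and Cacna1a at 151.2 (94.9 to 226.3). Cacna1g, Cacna1b and Cacna1c overlapped one another at 83.1, 79.7 and 69.9 CPM per 100 kb. Cacna1e had 40.7 (37.6 to 114.0) and Cacna1d was lowest at 15.0 (10.96 to 22.6). Cacna1d thus had the lowest level of the 8 per length in both assays.

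The reads lay mostly in introns. By GENCODE M21, 666 of the 716 positions had their midpoint in an intron, 16 in a 3′ UTR, 2 in a 5′ UTR, 12 in a coding exon and 20 in another annotated exon. Introns took 86.3% to 92.4% of the members' CLIP reads per library, against 64.9% to 74.5% for all genes. The members are long genes, and length was not matched in this comparison. In Cacna1b coding exons took 12.5% to 40.8% of the reads and introns 53.1% to 87.5%. In Cacna1e, 3′ UTR positions took 8.32% to 22.8% of the reads.

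**Figure D2:**
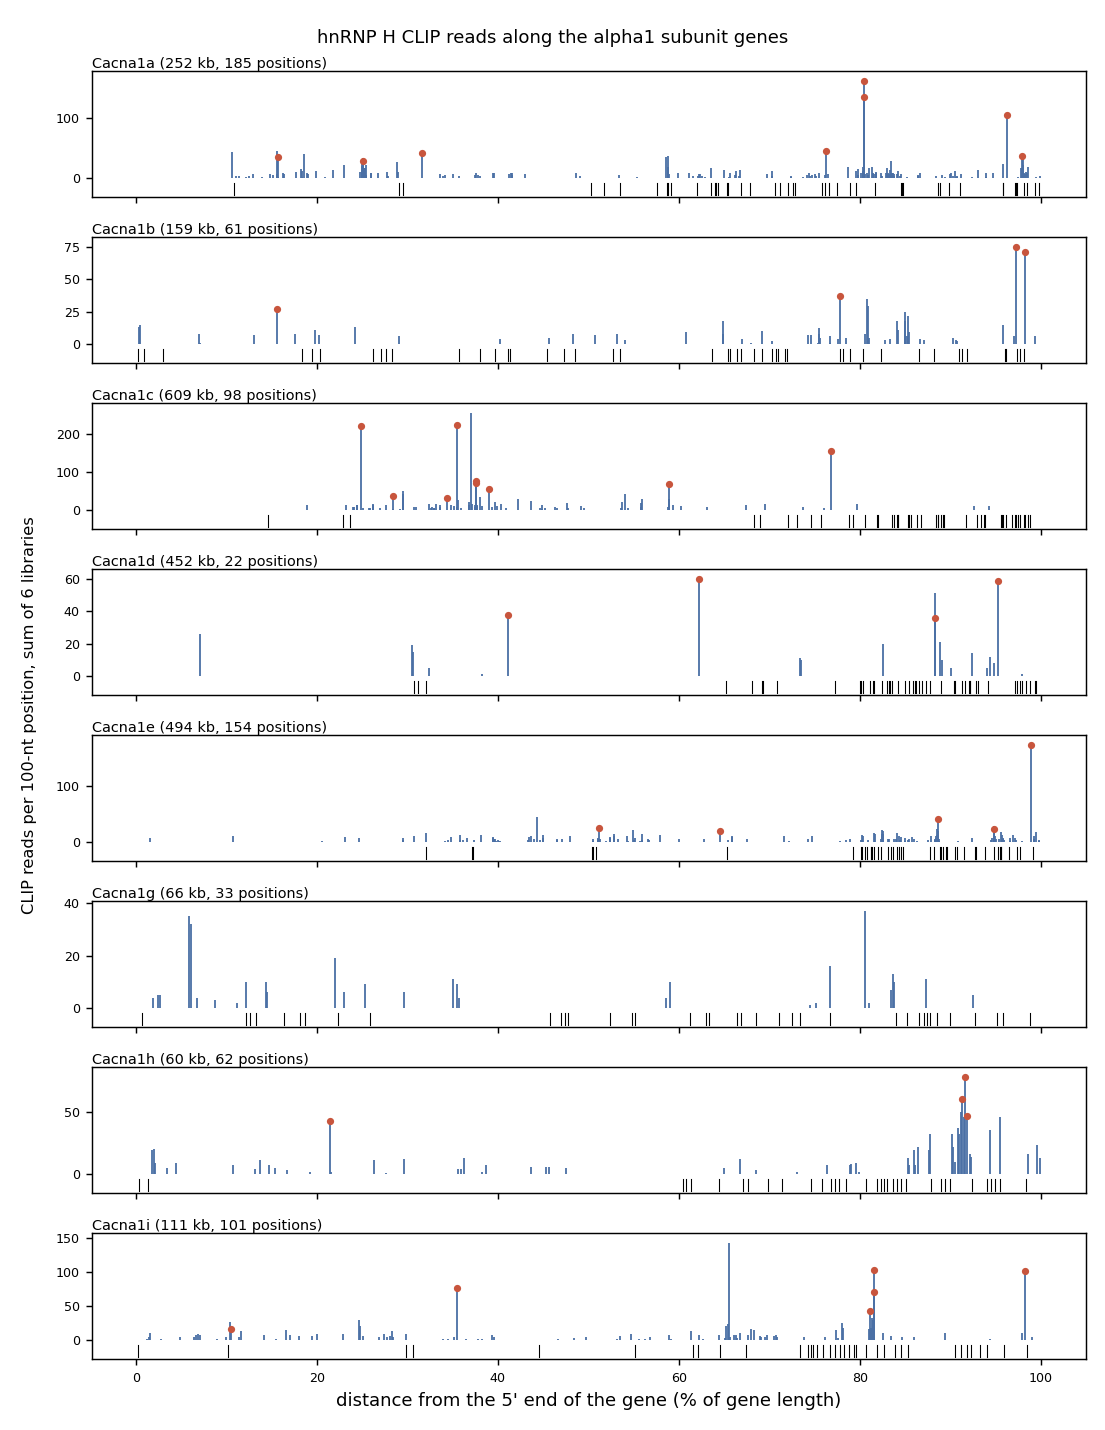
CLIP reads at each 100-nt position summed over 6 libraries (vertical axis) along each gene from its 5′ end (horizontal axis, % of gene length). Red dots mark positions in either of the authors' lists and black ticks exons of the reference transcript; reads gather in intron 3 of Cacna1c and near the 3′ end of Cacna1h.

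In several genes 1 intron held a large share of the reads. They were chosen with their values in view. In Cacna1c, the L-type pore, intron 3 (chr6:118780325-119052600, 272.3 kb of a 609.2 kb gene, 44.7% of its length) held 87 of 98 positions and 2045 of 2291 reads, or 89.3%. The share was 88.4%, 88.5% and 87.4% of the gene's reads after saline and 92.7%, 85.9% and 93.3% after methamphetamine, so it was high in every pool. The Wilson 95% interval was 82.1% to 89.0% in the lowest pool and 89.5% to 95.8% in the highest, and covers counting error only. Introns of other members held large shares at a small size. In Cacna1h, the T-type pore, intron 29 (chr17:25378856-25380220) is 1.365 kb and 2.29% of the gene, and it held 44.1% of the reads, with 58.5%, 52.0% and 44.1% after saline and 26.7%, 49.2% and 50.5% after methamphetamine. Methamphetamine replicate 1 was the low pool there. In Cacna1i, intron 24 (chr15:80376864-80378155, 1.292 kb, 1.16% of the gene) held 24.0% of the reads (9.38% to 33.6% per library) and intron 9 (2.763 kb) held 17.2%. In Cacna1a the largest share, 25.5%, was in intron 1, which is 45.55 kb and 18.1% of the gene. Its intron 30 (chr8:84588860-84594136, 5.277 kb, 2.10% of the gene) held 20.2% of the reads, with 21.1% to 31.9% in the A pools against 6.67% to 16.1% in the B pools. In Cacna1d, intron 30 (chr14:30089906-30095317, 5.412 kb, 1.20% of the gene) held 25.3%. Per library it ranged from 11.1% (3 of 27 reads, saline replicate 2) to 52.8% (28 of 53 reads, methamphetamine replicate 1).

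The single position with the most reads in each gene shows how the pools compared. In Cacna1c it was chr6:118971141-118971240 in intron 3, where the saline pools had 50, 5 and 87 reads and the methamphetamine pools 17, 49 and 47. Scaled to library size these are 49.5, 13.3 and 52.1 CPM and 19.9, 49.5 and 83.3 CPM, so the treatments overlapped. Although it had the most reads of any member position, it stood in neither of the authors' lists. In Cacna1e, the R-type pore, it was the 3′ UTR position whose bases are printed above, with 32.6, 21.2 and 39.5 CPM after saline and 24.6, 31.3 and 26.6 after methamphetamine. The treatments overlapped, and the position was in the methamphetamine list only. In Cacna1a it was chr8:84590940-84591039 in intron 30, with 60.4, 2.65 and 28.7 CPM after saline and 3.51, 36.4 and 21.3 after methamphetamine, a spread that followed the library sets. This position was in the saline list only, while the adjoining chr8:84591040-84591139, with 47.5, 2.65 and 24.0 CPM and 4.68, 31.3 and 19.5 CPM, was in the methamphetamine list only. In Cacna1i it was chr15:80359939-80360038 in intron 9 (143 reads in all, in neither list) and in Cacna1h chr17:25379186-25379285 in intron 29 (78 reads). In Cacna1b it was chr2:24608088-24608187, which crosses into exon 45 of 47 and had 46 of its 75 reads in saline replicate 3. In Cacna1d it was chr14:30210340-30210439 in intron 3, with 51 of its 60 reads in saline replicate 3, and in Cacna1g chr11:94421092-94421191 in intron 26, with 37 reads.

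Summed per gene, CLIP reads did not pass the test between treatments for any member. With edgeR's quasi-likelihood test on 8185 genes, 0 of 8 members had an adjusted p under 0.05, as did 0.0% of all genes. At an unadjusted p under 0.05 there were 0 of 8 members and 5.24% of all genes (429). The changes were above 0 for 6 of 8 members, and for 52.4% of all genes, with a median of 0.36 on the log2 scale against 0.04 for all genes. Without methamphetamine replicate 1 the members' median was 0.08, with 5 of 8 above 0. With reads at listed positions only it was -0.17, with 2 of 7 above 0. Those positions were picked per treatment from these same libraries, so this last median cannot be weighed against that of all positions. In 2 of 8 members the pools did not overlap between treatments, which was so for 9.6% of all genes.

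Those 2 were Cacna1d and Cacna1g, in opposite directions. Cacna1d, the L-type pore with the lower level, had 91.0, 71.7 and 101.8 CPM after saline and 62.0, 49.5 and 63.8 after methamphetamine. Every methamphetamine pool was below every saline pool, as in 4.69% of all genes. The change was -0.60 ± 0.36 (SE derived from the test statistic, here and below for CLIP counts; edgeR, adjusted p 0.88). Its sum rests on 22 positions and on as few as 27 reads in saline replicate 2. Cacna1g had 45.5, 42.5 and 47.3 CPM after saline and 62.0, 62.6 and 74.4 after methamphetamine, every methamphetamine pool above every saline pool, as in 4.91% of all genes. Its change was 0.55 ± 0.35 (edgeR, adjusted p 0.88), from 16 to 79 reads per library. Within sets the change of Cacna1d was -0.96 in set A and -0.19 in set B, and that of Cacna1g 0.43 and 0.68.

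Cacna1e had the largest fitted change, with 1 pool far above the rest. Its CLIP signal was 197.9, 204.4 and 200.1 CPM after saline and 562.9, 185.8 and 202.1 after methamphetamine. Methamphetamine replicate 1 stood apart, and the other 5 lay within 185.8 to 204.4 CPM. The change of 0.66 ± 0.47 (edgeR, adjusted p 0.88) became -0.05 without that pool. In the same pool 5 positions of Cacna1e had at least 10 reads with over 90% of them from it, and without these 5 it still stood at 490.3 CPM. Over all members 11 of 269 positions with at least 10 reads had over 90% in 1 library (4.09%), 9 of them in methamphetamine replicate 1. Over all genes the share was 2.86%, with 1350 of 1742 such positions in that replicate.

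Cacna1c had 504.6, 207.1 and 318.1 CPM after saline and 609.7, 400.8 and 450.2 after methamphetamine, a change of 0.50 ± 0.40. Saline replicate 1 lay above 2 methamphetamine pools, and the change was 0.00 within set A and 1.34 within set B. Cacna1a had 446.2, 238.9 and 313.9 against 569.9, 421.0 and 340.3 (change 0.41 ± 0.37), also with overlap. The remaining 3 had changes of 0.31 ± 0.36 (Cacna1h), 0.27 ± 0.38 (Cacna1b) and -0.13 ± 0.34 (Cacna1i) with overlap in each. Without methamphetamine replicate 1 the change of Cacna1h was 0.10 and that of Cacna1b 0.05, and with the library set as a covariate that of Cacna1b was 0.02. For Cacna1b and Cacna1e the library sets did not overlap in CLIP, with set A the lower (89.9 to 123.7 against 130.1 to 182.6 CPM for Cacna1b), and 25.5% of all genes had such sets. With reads at listed positions only, 3 members changed sign: the change was -0.23 for Cacna1a, -0.17 for Cacna1c and -0.00 for Cacna1e. The same restriction gave -1.53 for Cacna1d and 0.80 for Cacna1h (edgeR, adjusted p 0.77 for each). The listed positions were picked per treatment from these same CLIP libraries, so values at them are a description only. For Cacna1d the lists hold 0 methamphetamine and 4 saline positions, so a lower value there was favoured beforehand.

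**Figure D3:**
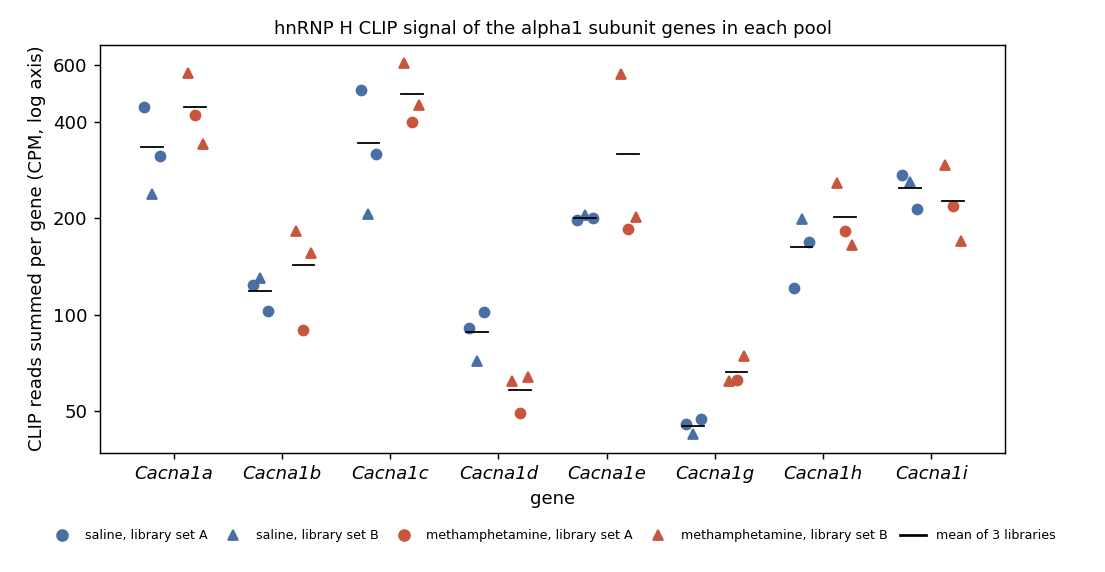
CLIP reads summed per gene in CPM on a log axis, 1 point per pool, with saline in blue, methamphetamine in red, circles for set A, triangles for set B and a line at the mean of 3 pools. Cacna1d and Cacna1g are the 2 genes whose colours do not overlap, and 1 methamphetamine pool of Cacna1e stands at 562.9 CPM.

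CLIP signal relative to transcript level was computed per pool as the log2 ratio of CLIP CPM to RNA-seq CPM. Cacna1d was again lower in every methamphetamine pool, at 1.20, 0.54 and 1.52 after saline and 0.51, 0.33 and 0.39 after methamphetamine. Its change was -0.68 ± 0.51 (limma, adjusted p 0.99), and saline replicate 2 lay close to the methamphetamine pools. Cacna1c had 1.31, 0.29 and 0.63 after saline and 1.82, 1.05 and 1.41 after methamphetamine, with overlap, and the largest change above 0, at 0.68 ± 0.53. Of the members 0 of 8 passed the adjusted threshold, as did 0.0% of 11329 genes, and 0 of 8 had an unadjusted limma p under 0.05, against 3.65% of genes. Cacna1d was the 1 of 8 whose groups did not overlap, against 8.01% of genes. The ratio of Cacna1g overlapped between treatments, at -0.52, -0.38 and -0.03 after saline and 0.27, -0.10 and 0.09 after methamphetamine.

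**Figure D4:**
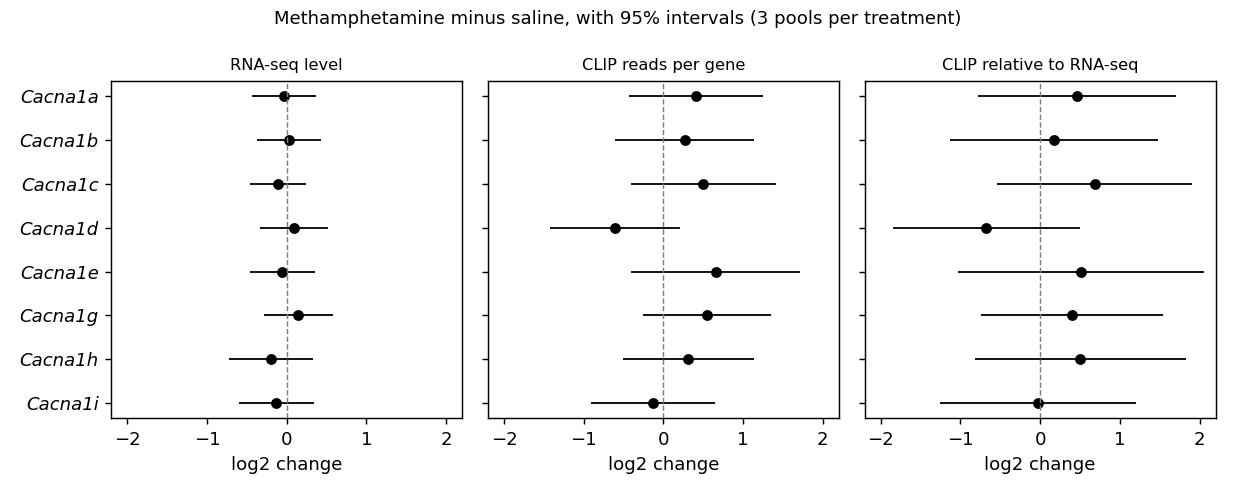
Change of each gene, methamphetamine minus saline on the log2 scale (horizontal axis), with 95% intervals from 3 pools per treatment, for RNA-seq level, CLIP reads and their ratio. All 24 intervals cross 0, and the RNA-seq intervals are the narrowest.

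Single positions were tested where they had enough reads. Of the members' 716 positions 18 passed the count filter, in 6 genes, so nothing can be said by this test of the others or of Cacna1b and Cacna1g. With edgeR 0 of 18 had an adjusted p under 0.05, as did 0.0% of 10358 positions, and 1 of 18 had an unadjusted p under 0.05 (3.35% of all). That was chr14:30061140-30061239 in intron 41 of Cacna1d, where the saline pools had 12, 6 and 35 reads and the methamphetamine pools 0, 4 and 2. In CPM it had 11.9, 15.9 and 21.0 against 0.0, 4.04 and 3.55, with no overlap (5.55% of all tested positions were lower in this way), and a change of -2.52 ± 0.85 (edgeR, adjusted p 0.9998). Without saline replicate 3, which had the most of its reads, the change was -2.28 with an unadjusted edgeR p of 0.183. The next positions by unadjusted p were chr15:80326639-80326738 in intron 4 of Cacna1i, with 14.8, 15.9 and 21.6 CPM after saline and 2.34, 12.1 and 8.86 after methamphetamine, and chr8:84630940-84631039 in intron 40 of Cacna1a, with 25.7, 23.9 and 21.6 against 12.9, 19.2 and 5.32. In both, every methamphetamine pool was below every saline pool, and both passed neither threshold.

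The authors' lists were set beside the reads at the listed positions. Each list was made within 1 treatment, so standing in 1 list only does not rank a position between treatments. The lists give 6 methamphetamine and 2 saline positions for Cacna1a, 3 and 2 for Cacna1b, 4 and 5 for Cacna1c, 0 and 4 for Cacna1d, 3 and 5 for Cacna1e, 3 and 3 for Cacna1h, 5 and 3 for Cacna1i, and none for Cacna1g. The 2 lists shared 6 positions, 25.0% of each of the members' lists, against 47.8% of the whole methamphetamine list and 49.6% of the whole saline list. Of 18 positions with counts in the methamphetamine list only, the mean CPM was higher after methamphetamine in 9. In 2 every methamphetamine pool was above every saline pool, at chr15:80298839-80298938 in intron 2 of Cacna1i (16 reads in all) and chr17:25420986-25421085 in intron 2 of Cacna1h (43 reads). In 3 every methamphetamine pool was below every saline pool. Those 3 were the Cacna1i and Cacna1a intron positions just described and the Cacna1i 3′ UTR position printed above, which had 22.8, 23.9 and 21.6 CPM after saline and 12.9, 16.2 and 10.6 after methamphetamine. Among positions of all genes with at least 60 reads, 5.99% were lower in every methamphetamine pool, and 3 of the members' 21 such positions were. Of all 10743 such positions, 261 were higher in every methamphetamine pool, as were 0 of the members' 21. The 2 higher positions named above had fewer than 60 reads, so these shares do not cover them. The filter of 60 reads counts unscaled reads. Saline CLIP libraries held 1053269, 423057 and 1635338 reads at counted positions, and methamphetamine libraries 909091, 979878 and 595372. Positions high in the deeper libraries reached 60 reads more easily, and how far this shaped the shares was not tested. Of 17 positions with counts in the saline list only, the mean was higher after methamphetamine in 1. Every methamphetamine pool was above every saline pool in 0 of the 17 and below in 1, the Cacna1d intron 41 position. The lists were made per treatment, so they hold no replicate spread. They come from these same CLIP libraries, so a higher mean in a list's own treatment is favoured beforehand, and these counts carry no test. The matching share over the list-only positions of all genes is not given here. The count table lacked a line for 2 listed positions of Cacna1e, 1 of them in both lists and 1 in the saline list, and 1 position listed under Cacna1a lies on the opposite strand and was left out. How the authors scored a position is not given in the sources used here.

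The library sets were compared at the positions with many reads. Of the members' 21 positions with at least 60 reads, 11 were higher in all of set A than in all of set B and 1 was lower, where 23.6% and 6.66% of all such positions were. Of these 11, 5 lay in Cacna1c and 2 in intron 30 of Cacna1a. The 1 that was lower in set A was the Cacna1b coding position printed above, with 3.96, 5.39 and 8.08 CPM in the A pools against 50.4, 29.3 and 10.6 in the B pools. The sets were drawn in part from these positions, so this is a description with no test. The filter counts unscaled reads, and the CLIP libraries of set A were the deeper ones, so positions high in set A reached 60 reads more easily. How far this shaped the counts was not tested.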

How the data were processed

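Values of 6 RNA-seq and 6 CLIP libraries were used, 3 per treatment. Each replicate was a pool of mice, so p-values measure the spread between pools. The authors deposited RNA-seq as log2 CPM made with voom, per the labels' file name; whole reads came out for 100% of values (tolerance 0.01). The deposited CLIP table holds whole-number counts per position in 172271 lines, of which 147438 are distinct and entered the sums and tests. The authors' 2 peak lists give 1 signal score and 1 q-value per peak, whose scale and test are not given in the sources used here. Per the submitters' processing notes, Trimmomatic, UMI-tools, STAR, bedtools, Subread, featureCounts, limma, edgeR and the build mm10 were used, with no role stated; whether reads were collapsed by molecular identifier or counted by strand is not given in the sources used here.

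Members and lists were chosen with earlier results of these data known. RNA-seq was tested with limma 3.58.1 (trend) on all genes, and CLIP positions and gene sums with edgeR 4.0.16 (filterByExpr, TMM, quasi-likelihood test) in R 4.3.3, all with Benjamini-Hochberg adjustment at 0.05. CLIP CPM used the TMM library sizes of gene sums. The CLIP to RNA-seq log2 ratio used genes with at least 10 reads in each assay, an offset of 0.5 reads and limma. DESeq2 1.42.0 was an alternative. Coordinates are 1-based on GRCm38 (mm10), and regions, exons and lengths are from GENCODE M21; intron numbers follow 1 reference transcript per gene. Positions are 100 nt wide. The text names all members, the 3 channel-list genes and 3 member positions with the smallest unadjusted p, each member's position with the most reads, listed positions in exons, and the 3 genes nearest to the members' median profile. The biological coefficient of variation of CLIP counts was 56.0% for positions and 49.3% for gene sums.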

Additional observations from a re-analysis of the deposited data

How the results depend on the processing

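No gene-level change of a member passed the adjusted threshold under any alternative run (smallest adjusted p 0.53, edgeR, Cacna1e CLIP sum without methamphetamine replicate 2). Of the changes of members and named positions recomputed under the alternatives, 12 of 104 in RNA-seq, 0 of 33 for CLIP positions, 5 of 95 for CLIP sums and 6 of 88 for the ratio changed sign, and the rest kept it. With the library set as a covariate the RNA-seq change was 0.07 for Cacna1a, -0.017 for Cacna1d and 0.012 for Cacna1i, and the ratio was -0.030 for Cacna1b. Scaled to the read total, which moved the median of all genes to 0.085, it was 0.051 for Cacna1a and 0.030 for Cacna1e. With listed positions only the CLIP change was -0.234 for Cacna1a, -0.168 for Cacna1c and -0.0035 for Cacna1e, and Cacna1g had none. The lists were made per treatment from these same libraries, so this alternative cannot speak for or against the sums over all positions. For all of these sign changes the cause was not tested. Without each replicate in turn, changes that crossed 0 ranged in RNA-seq from -0.156 to 0.082 (Cacna1a), -0.081 to 0.188 (Cacna1b), -0.018 to 0.233 (Cacna1d), -0.154 to 0.090 (Cacna1e) and -0.311 to 0.032 (Cacna1i). In CLIP sums they ranged from -0.047 to 0.912 (Cacna1e) and -0.354 to 0.033 (Cacna1i), and in the ratio from -0.188 to 0.533 (Cacna1b), -0.141 to 0.843 (Cacna1e) and -0.250 to 0.164 (Cacna1i). The replicate block called 0 genes or positions in each of the 4 tests. Under the block the CLIP sum of Cacna1d changed by -0.587 and its intron 41 position by -2.73. Deviations of same-numbered pools from their group means had negative correlations (r -0.35, -0.82 and -0.49 in RNA-seq, -0.37, -0.55 and -0.08 in CLIP). Each same-numbered pair lies in opposite library sets, which pulls r below 0, so these values cannot show whether such pools shared a batch. Without a count filter edgeR called 406 of 147438 CLIP positions (24 higher), against 0 of 10358 with it; 0 of the members' 716 were called, with a smallest adjusted p of 0.055 at chr6:118986941-118987040 in Cacna1c (25 of its 31 reads in methamphetamine replicate 1). Unadjusted counts under 0.05 were 6792 and 347. With the filter 18 of the 716 had enough reads to be tested. Changes of CLIP sums that kept their sign without each replicate ranged from 0.049 to 0.495 (Cacna1b) and 0.101 to 0.435 (Cacna1h).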

Other observations

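Positions at splice sites were looked for, because alpha1 transcripts differ by exon choice. Of the 716 positions, 19 crossed the edge of an exon of the reference transcript, 15 at the acceptor and 4 at the donor. The position with the most reads among them was at the acceptor of exon 45 of Cacna1b (75 reads, 59 nt of it in the exon). It was followed by the acceptor of exon 33 of Cacna1b (chr2:24639188-24639287, 37 reads, 0 to 7 in saline pools and 3 to 13 in methamphetamine pools) and the donor of exon 9 of Cacna1a (37 reads). The acceptor of exon 26 of Cacna1g (chr11:94423692-94423791) was read 0, 1 and 7 times in the saline pools and 2, 2 and 4 times in the methamphetamine pools. That 54-nt exon is present in 6 of the gene's annotated coding transcripts and skipped in 5. The exon 39 acceptor of Cacna1e, with 5 reads, was the other 1 of the 19 with an exon that a coding transcript skips. Intron positions lay at a median of 2529 nt from the nearest exon of the reference transcript.

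The genes whose RNA-seq profile over the 6 libraries was nearest to the members' median profile were Cacnb3, a beta subunit of the same channels, Gga1 and Nlgn2. The root mean square difference was 0.015 on the log2 scale for Cacnb3, 0.026 for Gga1 and 0.027 for Nlgn2, against a median of 0.243 over 7845 genes. Cacnb3 read 8.10, 7.91 and 8.10 log2 CPM after saline and 7.80, 8.15 and 8.10 after methamphetamine. The likeness is over 6 libraries that share 1 difference between library sets, and carries no test.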
